A study of Homo sapiens with 24 samples.

Results

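The genes described here are the receptors of the vascular endothelial growth factor (VEGF) family, their co-receptors and a set of their ligands, in human embryonic stem cells. There are 8 of them among the 60671 genes of the count tables, namely the receptor tyrosine kinases KDR, FLT1 and FLT4, the neuropilins NRP1 and NRP2, and the ligands VEGFB, VEGFC and PGF. They were taken by gene symbol, and each symbol matched 1 Ensembl identifier in both tables. The family was picked with its levels in the 8 groups and its differences in the 3 knockdown comparisons already in view. Every value of these 8 genes below, between cell states and lines as well, is therefore a description, and no p-value is given for it. Polyadenylated RNA was sequenced in 24 libraries of 2 established embryonic stem cell lines, 18 of H1 and 6 of H9, in 8 groups of 3. The H1 groups were primed cells with CARHSP1 knocked down and their nontargeting control, naive cells labelled as a ZNF8 knockdown and their nontargeting control, and cells on day 2 of differentiation to ectoderm with ZIC2 knocked down and their nontargeting control. Doxycycline is listed for all H1 groups, the controls included, and for neither H9 group. The H9 groups were primed and naive cells with no knockdown. Primed cells resemble the epiblast after implantation and naive cells the epiblast before it. The labels give the same maintenance medium for every group, naive and ectoderm included, and neither how the knockdowns were made nor whether replicates came from different cultures is stated in them. A p-value below is therefore about the spread among these libraries, and that spread may be technical.

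VEGF ligands are secreted dimers that bind receptor tyrosine kinases at the cell surface. KDR (VEGF receptor 2) is the main signalling receptor of blood vessel endothelium and is also used as an early marker of mesoderm. FLT1 (VEGF receptor 1) binds its ligands tightly but signals weakly, and a soluble form of it acts as a decoy, so it is often described as a brake on KDR. FLT4 (VEGF receptor 3) binds VEGFC and is best known from lymphatic vessels. NRP1 and NRP2 have no kinase of their own. They hold VEGF ligands next to the receptors and, together with plexins, also bind class 3 semaphorins, the guidance cues of growing axons and neural crest cells. VEGFB and PGF bind FLT1, and VEGFC binds FLT4 and KDR. The counts are per gene, so full-length and soluble FLT1 cannot be told apart in them.

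KDR and FLT1 are printed with their proximal promoters because the balance between these 2 receptors differed between groups. The windows are the 250 bases before the start site, 5′ to 3′ on the gene's strand, from RefSeq on GRCh38.p14. Capitals mark the GC box GGGCGG, on either strand, and the TATA box TATAAA. Of the 8 genes, 6 had a promoter in the RefSeq table.
KDR, chr4:55125596-55125845, minus strand: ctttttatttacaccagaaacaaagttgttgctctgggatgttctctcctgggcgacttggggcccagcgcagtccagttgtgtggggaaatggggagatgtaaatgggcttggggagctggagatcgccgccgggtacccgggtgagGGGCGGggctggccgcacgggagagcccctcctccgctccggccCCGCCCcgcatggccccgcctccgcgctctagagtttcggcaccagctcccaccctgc
FLT1, chr13:28495129-28495378, minus strand: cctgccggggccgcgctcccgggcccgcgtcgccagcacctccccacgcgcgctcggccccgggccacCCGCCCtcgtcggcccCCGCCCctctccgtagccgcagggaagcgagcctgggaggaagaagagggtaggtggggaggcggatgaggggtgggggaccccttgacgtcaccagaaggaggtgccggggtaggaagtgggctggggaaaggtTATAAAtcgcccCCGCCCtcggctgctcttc
The KDR window held 2 GC boxes, 102 and 58 bases before the start, and no TATAAA. The FLT1 window held 3 GC boxes, 182, 166 and 19 bases before the start, and a TATAAA 31 bases before it. Over 35116 RefSeq promoter windows of the same length, 42.6% held a GGGCGG and 10.7% a TATAAA on either strand. The motif ACGTG, the core bound by hypoxia-inducible factors, was in 18.5% of all windows and in neither of these. GC content was 65.2% for KDR and 73.2% for FLT1, against a median of 58% over all windows. The last 17 bases of the FLT1 window lie inside the gene as GENCODE 29 draws it. These matches describe the letters in the windows only.

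Depth lay between 6756704 and 20773963 counts per library, with 20732 to 25392 genes detected. Levels are in CPM (counts per 1000000), counts scaled to library size by TMM over all 24 libraries, and the H1 and H9 tables were counted separately. The targeted gene CARHSP1 was at 19.2 ± 1.63 CPM (SD, n = 3) in its knockdown and 149 ± 3.89 in the control, and ZIC2 at 267 ± 4.42 and 551 ± 58.4. ZNF8 was at 16.3 ± 1.26 CPM in the libraries labelled ZNF8 knockdown and 19.8 ± 3 in their control, with overlapping libraries, and did not pass (log2 change −0.32 ± 0.13, SE, edgeR adjusted p = 0.0664). Markers of other cells were fixed as lists. Of 12 endothelial markers, between 2 and 5 reached 1 CPM in a group, and their summed level was 20.4 to 64.1 CPM per library. The defining endothelial genes CDH5 and PECAM1 did not exceed 1.61 and 1.59 CPM in any library, and CDH5 had no count in either H9 group. The 3 lymphatic endothelial markers summed to 597 to 828 CPM in the naive H1 groups, 314 to 319 in naive H9 and at most 251 elsewhere. Nearly all of it was PDPN (605 ± 17 CPM in naive H1 controls), with PROX1 at 2.63 ± 0.416 CPM and LYVE1 at 7.99 ± 1.06 there. VWF, the defining endothelial gene beside CDH5 and PECAM1, was at 36.7 CPM in the ectoderm control, 10.5 CPM in the ZIC2 knockdown and at most 3.44 CPM in any other library. The 8 mesoderm markers summed to 139 to 160 CPM in naive H1 controls, 130 to 138 in the libraries labelled ZNF8 knockdown and at most 10.1 in any other library, with MIXL1 alone at 127 CPM in the naive H1 controls. The 4 core pluripotency genes summed to 2650 to 5550 CPM per library, but single genes differed. In the ectoderm control against primed H1 controls, 2 passed as higher and 2 as lower, where 62.8% of all genes passed. The 7 naive markers summed to at least 221 CPM in the naive groups and at most 37.9 elsewhere, and the 7 ectoderm markers to at least 654 CPM in the day 2 groups and at most 137 elsewhere. In bulk RNA, fewer cells that express a gene and less RNA per cell cannot be told apart.

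Among the receptors, KDR was highest in primed H1 controls, at 296 ± 3.03 CPM (libraries at 296, 300 and 294). It stood at 134 ± 8.61 with CARHSP1 knocked down, at 92.7 ± 7.31 in primed H9 cells and at 62.5 ± 5.14 in the ectoderm control. Naive H9 cells (46.5 ± 6.51) and the ZIC2 knockdown (41.1 ± 3.7) came next and overlapped. The lowest levels, also overlapping each other, were those of the libraries labelled ZNF8 knockdown (26.2 ± 3.39) and of naive H1 controls (25.0 ± 2.28). FLT1 was highest in the 3 primed groups, at 257 ± 9.24 CPM with CARHSP1 knocked down, 221 ± 7.14 in the H1 control and 219 ± 22.1 in H9, of which the last 2 overlapped. It was between 51.5 ± 1.56 and 74.1 ± 8.07 CPM in both ectoderm groups and the libraries labelled ZNF8 knockdown, 29.4 ± 1.87 in naive H1 controls and 10.6 ± 0.155 in naive H9 cells. FLT4 was the scarcest receptor. It ran from 21 ± 1.84 CPM in primed H1 controls, which overlapped the CARHSP1 knockdown at 19.1 ± 1.34, down to 2.25 ± 0.77 in the libraries labelled ZNF8 knockdown. Over the 8 group means the range was 11.8-fold for KDR, 24.2-fold for FLT1 and 9.33-fold for FLT4.

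The neuropilins had other orders. NRP2 ranged most of all 8 genes, 70.9-fold, from 10.1 ± 1.02 CPM in naive H9 cells to 716 ± 6.79 in the ectoderm control. The ZIC2 knockdown followed at 509 ± 10.6, and every other group was at 83.1 ± 1.98 or lower. NRP1 was highest in the ectoderm control (15.7 ± 3.26) and in naive H9 cells (14.6 ± 0.111), which overlapped. It was lowest in primed H1 controls, at 0.647 ± 0.319 CPM, where the 3 libraries held 4, 7 and 8 counts. Per gene length, NRP1 made up 1.12% ± 0.565 of the summed neuropilin level in primed H1 controls, 2.58% ± 0.515 in the ectoderm control, 34.9% ± 3.12 in naive H1 controls and 63.6% ± 2.5 in naive H9 cells. NRP2 was thus the main neuropilin per length in 7 of the 8 groups, and NRP1 in naive H9 cells.

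Of the ligands, VEGFB was the most even across groups after VEGFC, with a 4.86-fold range from 7.04 ± 0.922 CPM in the ectoderm control to 34.2 ± 1.86 in the libraries labelled ZNF8 knockdown. From naive H1 controls (25.7 ± 3.19) through primed H1 controls, naive H9, primed H9 and the CARHSP1 knockdown (18.7 ± 3.67), each group overlapped the next. VEGFC stayed between 1.15 ± 0.963 and 2.75 ± 0.752 CPM, with 3 to 68 counts per library, and neighbouring groups overlapped except primed H1 controls above primed H9. PGF ran from 3.86 ± 0.0383 CPM in primed H1 controls to 0.238 ± 0.129 in the libraries labelled ZNF8 knockdown, where the libraries held 2 to 5 counts. Per length, VEGFB was the most abundant of these 3 ligands in every group.

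**Figure D1:**
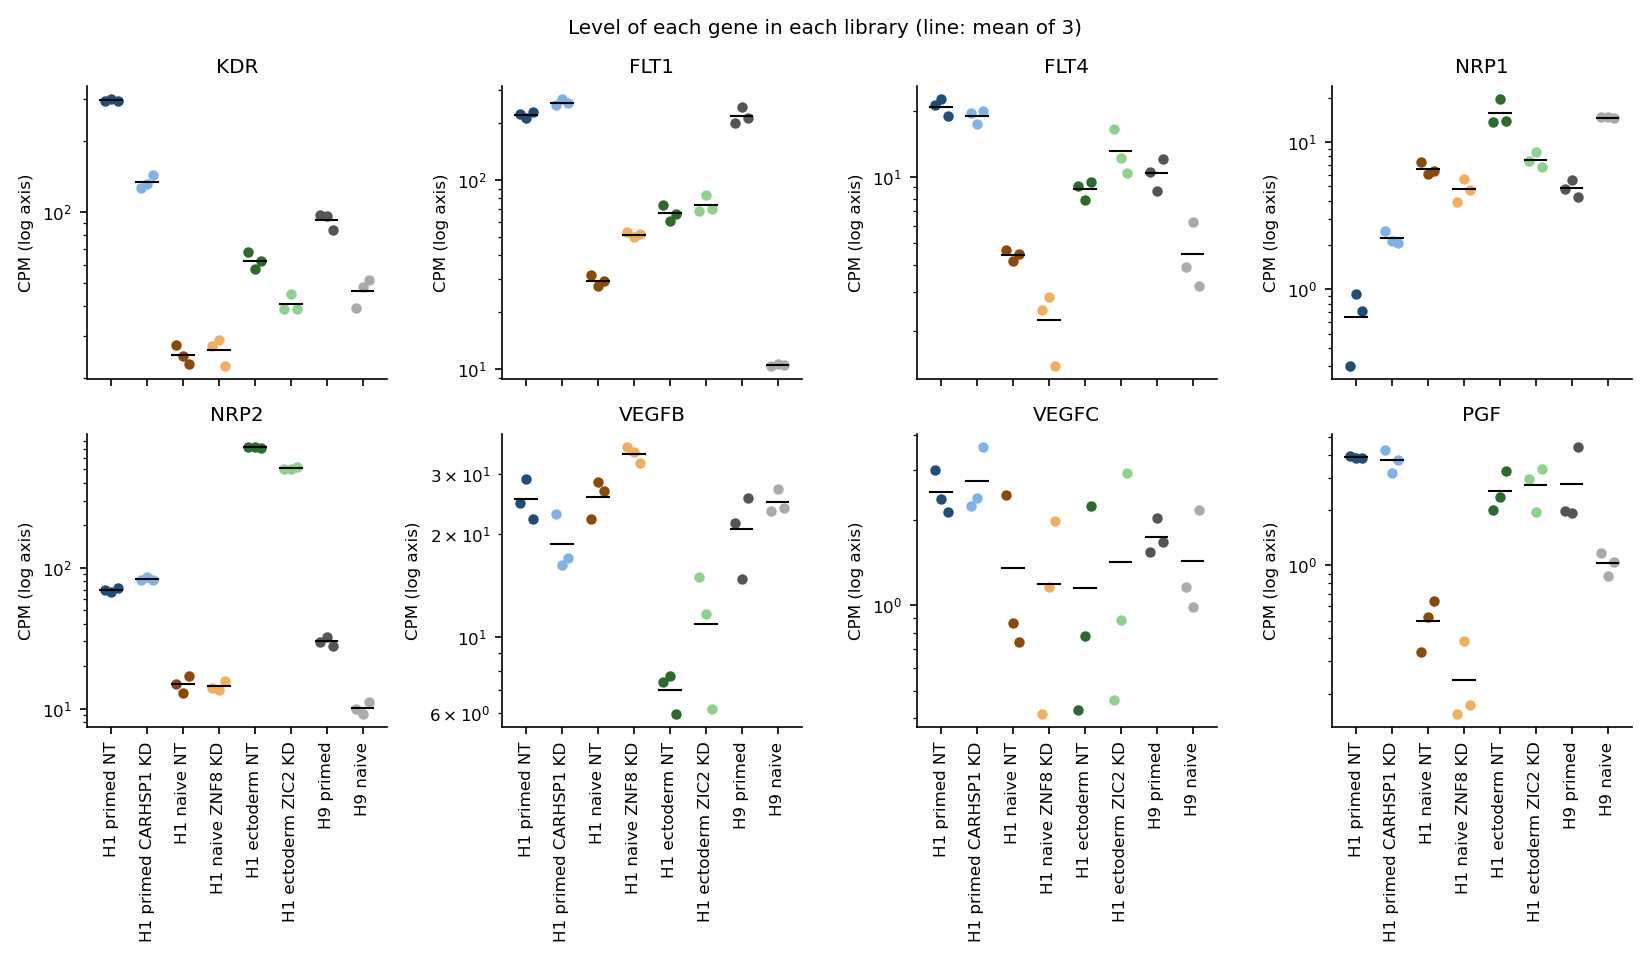
Level of each of the 8 genes in each library, in TMM-scaled CPM on a log axis, with 1 point per library, grouped by cell state and knockdown, and a line at the mean of 3. KDR and FLT1 are high in the primed groups, with KDR at 134 CPM in the CARHSP1 knockdown against 296 in its control, and NRP2 reaches 716 CPM in the ectoderm control.

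In primed H1 cells, the CARHSP1 knockdown held 2.21-fold less KDR RNA than its control, while FLT1 was slightly higher. CARHSP1 is a cold shock domain protein that binds RNA. Of the 8 genes, all tested, 3 passed as higher and 2 as lower, where 10.3% and 9.87% of 15642 genes tested did so and 20.2% passed either way. A gene passed at an edgeR adjusted p under 0.05. The contrast helped choose the genes, so nothing is read from that count, and the same holds for the counts of these genes in every comparison below. KDR was at 127, 132 and 144 CPM in the knockdown libraries and at 296, 300 and 294 in the controls. The groups were far apart, and KDR fell by 1.15 ± 0.05 (SE) on the log2 scale, or 2.21-fold. FLT1 was at 248, 267 and 255 CPM against 222, 214 and 228. All knockdown libraries lay above all controls, with a log2 change of 0.21 ± 0.05. FLT4 overlapped between the groups (−0.13 ± 0.12) and did not pass. Of 5 naive markers tested here, 0 were higher and 4 lower (median −1.22), summing over all 7 to 22.9 to 27.2 CPM in the knockdown and 33.4 to 37.9 in the control. Their part in the differences was not tested.

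Both neuropilins rose in the CARHSP1 knockdown. NRP2 was at 81.7, 85.4 and 82.3 CPM against 69.6, 66.9 and 71.5, a log2 change of 0.25 ± 0.07. NRP1 was at 2.48, 2.13 and 2.07 CPM against 0.301, 0.927 and 0.714, a log2 change of 1.85 ± 0.45. The NRP1 libraries did not overlap, but the controls rest on 19 counts in all, and without replicate 1 of the control the change was 1.44 and no longer passed. Of the ligands, VEGFB fell by 0.43 ± 0.13, with libraries at 22.9, 16.2 and 17 CPM against 24.7, 29 and 22.1. These overlapped, and VEGFB did not pass after removal of trends with GC content and gene length (−0.23), in a fit of all H1 groups (−0.43), or without any of 3 single libraries, namely knockdown replicates 2 and 3 and control replicate 2 (−0.36 to −0.33). VEGFC (0.14 ± 0.31) and PGF (−0.06 ± 0.26) did not pass.

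In naive H1 cells, the libraries labelled ZNF8 knockdown held more FLT1 RNA and about as much KDR RNA as their control. ZNF8 is a zinc finger protein. Of 7 genes tested, 2 passed as higher and 1 as lower, where 11.9% and 12.3% of all genes tested did so and 24.2% passed either way. PGF had too few counts to be tested. FLT1 was at 52.9, 49.8 and 51.8 CPM in the libraries with that label against 31.4, 27.7 and 29.1. The groups did not overlap, and FLT1 rose by 0.78 ± 0.09 on the log2 scale, or 1.72-fold. KDR was at 27.2, 28.9 and 22.4 CPM against 27.4, 24.8 and 22.9, and its log2 change was 0.04 ± 0.11. FLT4 was at 2.49, 2.86 and 1.38 CPM against 4.67, 4.17 and 4.47, a fall of 0.99 ± 0.29 that rested in part on replicate 3 of the labelled libraries. Without that library it was −0.77 and did not pass.

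NRP1 was at 3.94, 5.65 and 4.75 CPM in the libraries labelled ZNF8 knockdown and at 7.3, 6.07 and 6.38 in the control. These libraries did not overlap, but the difference (−0.50 ± 0.22) did not pass. NRP2 (−0.08 ± 0.14) and VEGFC (−0.32 ± 0.50) overlapped between the groups. VEGFB, at 35.9, 34.6 and 32.2 CPM against 22.1, 28.3 and 26.7, rose by 0.39 ± 0.10. It did not pass in a fit of all H1 groups (0.40) or without control replicate 1 (0.29). The trophoblast markers summed to 18.8 to 21 CPM in these libraries and 61.1 to 67.1 in the control. Of 6 tested here, 0 were higher and 4 lower (median −1.49), beside 11.9% and 12.3% of all genes. Similar sums were seen in primed H1 controls (60.1 to 62.3) and the CARHSP1 knockdown (69.3 to 75.9), but from other markers. Between naive and primed H1 controls, 4 of 6 tested were higher and 1 lower (median 2.51), beside 35.0% and 36.1% of all genes. The naive markers summed to 221 to 231 CPM in the labelled libraries and 463 to 487 in the control. The part of either marker list in the FLT1 and FLT4 differences was not tested.

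On day 2 of ectoderm differentiation, the ZIC2 knockdown held less KDR, NRP1 and NRP2 RNA than its control. ZIC2 is a zinc finger transcription factor of the early neural ectoderm. Of 7 genes tested, 1 passed as higher and 3 as lower, where 15.3% and 12.8% of all genes tested did so and 28.1% passed either way. VEGFC had too few counts to be tested. KDR was at 38.9, 45.3 and 39 CPM against 67.7, 57.5 and 62.2, and it fell by 0.61 ± 0.10, or 1.52-fold, with no overlap. FLT1 was at 68.3, 83.3 and 70.6 CPM against 73.8, 61.1 and 65.8, overlapped, and did not pass (0.14 ± 0.09). FLT4 was at 16.7, 12.3 and 10.5 CPM against 9.15, 7.89 and 9.48, and rose by 0.57 ± 0.20. That call was lost after removal of GC and length trends (0.20), and without knockdown replicate 1 (0.37), control replicate 2 (0.49) or control replicate 3 (0.63).

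Neuropilins, which guide axons and neural crest cells, were at their highest in the ectoderm control. NRP2 was at 500, 505 and 521 CPM in the ZIC2 knockdown against 722, 717 and 709, and fell by 0.50 ± 0.05. NRP1 was at 7.41, 8.55 and 6.78 CPM against 13.7, 19.5 and 14, and fell by 1.06 ± 0.19, or 2.09-fold. Both neuropilins were lower in every knockdown library than in every control library. VEGFB was at 15, 11.7 and 6.17 CPM against 7.43, 7.7 and 5.99. The change (0.64 ± 0.26) did not pass, and knockdown replicate 3 stood with the controls; without it the change was 0.92 and passed. PGF (0.08 ± 0.37) overlapped. The ectoderm markers summed to 654 to 717 CPM in the knockdown and 880 to 998 in the control, and VWF was lower as well, at 10.5 ± 1.66 against 36.7 ± 1.53. Their part in the receptor and neuropilin differences was not tested.

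**Figure D2:**
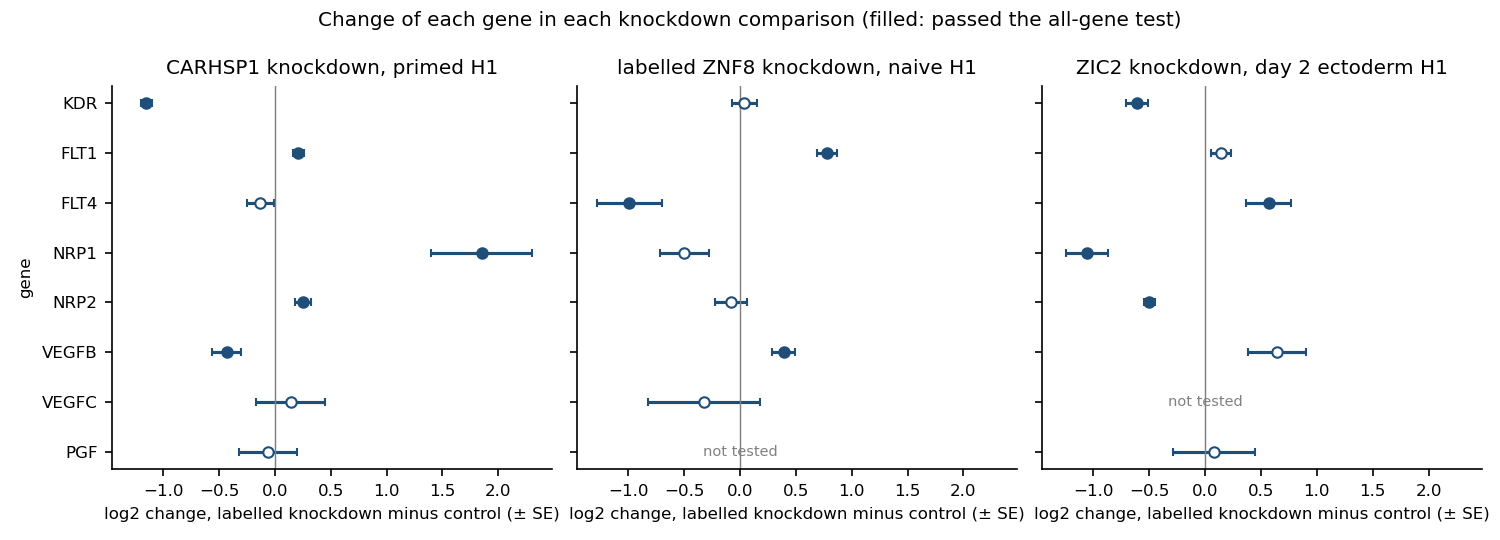
Log2 change of each gene, libraries labelled as a knockdown minus their nontargeting control, with its SE, in the CARHSP1, ZNF8 and ZIC2 comparisons; filled points passed the test over all genes and open points did not. KDR is at −1.15 and −0.61 in the CARHSP1 and ZIC2 comparisons and at 0.04 in the ZNF8 comparison, where FLT1 is at 0.78.

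Set per gene length, the level of KDR relative to FLT1 was lower in the CARHSP1 and ZIC2 knockdowns and in the libraries labelled ZNF8 knockdown than in their controls, by different routes. This ratio was noticed in the data and is given with no test. In primed H1 cells it was 2.66 ± 0.116 in the control (2.55 to 2.78) and 1.04 ± 0.0734 in the CARHSP1 knockdown (0.977 to 1.12), where KDR was lower and FLT1 slightly higher. In naive H1 cells it was 1.69 ± 0.121 in the control (1.55 to 1.78) and 1.01 ± 0.147 in the libraries labelled ZNF8 knockdown (0.857 to 1.15), where FLT1 had passed and KDR had not. On day 2 of ectoderm it was 1.85 ± 0.0265 in the control (1.82 to 1.87) and 1.1 ± 0.0265 in the ZIC2 knockdown (1.08 to 1.13), where KDR had passed and FLT1 had not. The 3 controls thus had 2.56, 1.67 and 1.68 times the ratio of the libraries labelled as their knockdowns, and none of those reached any control library. As a share of the 3 receptors per length, KDR was 70.0% ± 0.611, 58.1% ± 1.76 and 60.9% ± 0.252 in the controls and 48.3% ± 1.55, 48.6% ± 3.21 and 46.7% ± 0.964 in the libraries labelled as knockdowns. The log2 difference in ratio stayed between −1.41 and −1.31, −0.84 and −0.65, and −0.77 and −0.74 over the alternatives run. Across all 8 groups the extremes were H9, with ratios of 0.844 ± 0.0999 in primed and 8.71 ± 1.16 in naive cells.

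**Figure D3:**
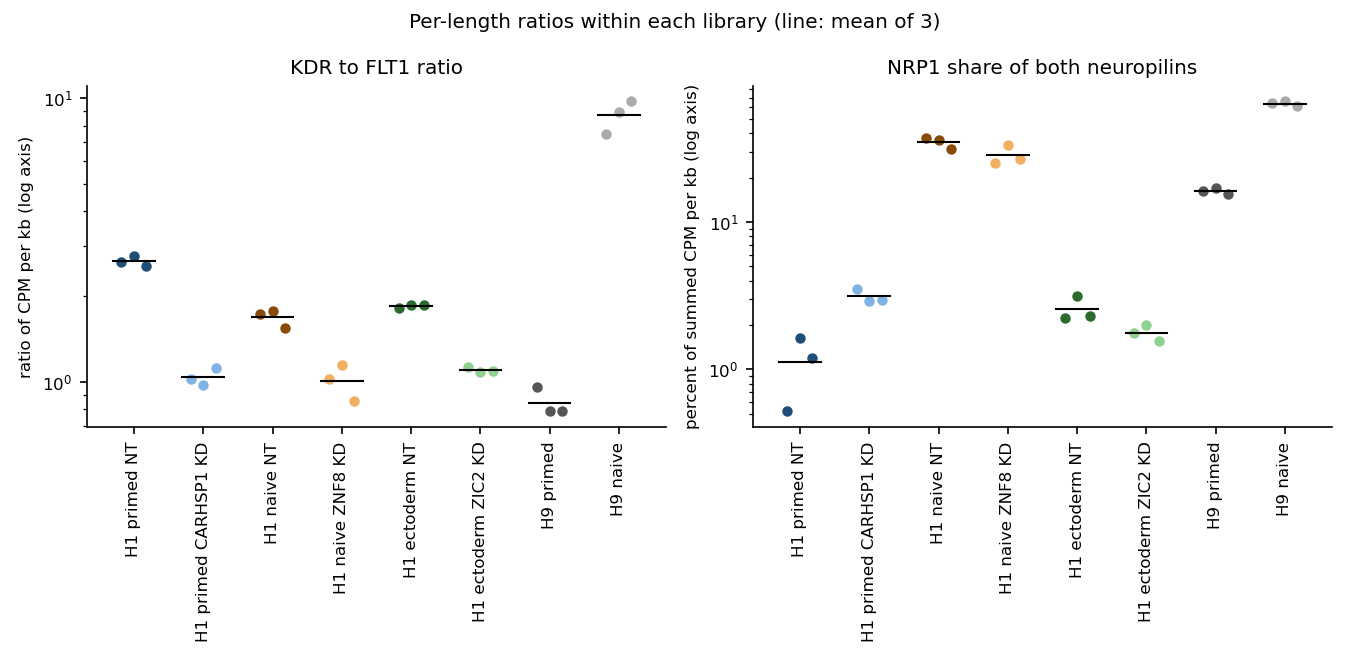
Ratio of KDR to FLT1 per gene length (left) and NRP1 as a percent of the summed neuropilin level per gene length (right), both on log axes, with 1 point per library and a line at the mean of 3. The 3 groups labelled as knockdowns sit near a KDR to FLT1 ratio of 1, below controls at 1.69 to 2.66, and naive H9 cells are highest in both panels, at 8.71 and 63.6%.

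The differences between cell states are those of the group levels that were in view when the genes were picked, and are given as sizes with an SE. In H9, naive cells held less RNA of all 3 receptors and of NRP2 than primed cells, and more NRP1. Of the 8 genes, 1 passed as higher and 5 as lower, where 25.4% and 26.1% of all genes tested did so and 51.5% passed either way. FLT1 was at 10.4, 10.7 and 10.5 CPM in naive libraries against 201, 244 and 212, and fell 20.6-fold (log2 −4.36 ± 0.12). KDR was at 39.2, 48.4 and 51.8 CPM against 97.1, 96.6 and 84.2, a smaller fall of 0.99 ± 0.11. FLT4 fell by 1.25 ± 0.22. NRP2 went from 30 ± 2.18 to 10.1 ± 1.02 CPM (−1.56 ± 0.14) and NRP1 from 4.84 ± 0.617 to 14.6 ± 0.111 (1.61 ± 0.17). The 2 neuropilins thus moved in opposite directions. PGF, at 1.02 ± 0.141 CPM against 2.77 ± 1.41, fell by 1.42 ± 0.39, but not past the threshold without primed replicate 3 (−0.91). VEGFB (0.26 ± 0.16) and VEGFC (−0.24 ± 0.36) did not pass.

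The same directions were seen between naive and primed nontargeting controls of H1, where 1 gene passed as higher and 5 as lower. Of all genes tested, 35.0% passed as higher, 36.1% as lower and 71.1% either way. KDR fell 11.8-fold, from 296 ± 3.03 to 25.0 ± 2.28 CPM (log2 −3.56 ± 0.06). FLT1 fell 7.52-fold, from 221 ± 7.14 to 29.4 ± 1.87 CPM (−2.91 ± 0.07), and FLT4 4.71-fold, from 21 ± 1.84 to 4.43 ± 0.252 CPM. The summed level of the 3 receptors per length was 66.7 CPM per kb in primed and 6.79 in naive controls. NRP2 fell by 2.22 ± 0.10, and NRP1 rose by 3.43 ± 0.38 from very few counts. PGF fell by 2.95 ± 0.45, with 4 to 6 counts in each naive library. VEGFB, at 25.7 ± 3.19 and 25.3 ± 3.51 CPM (0.04 ± 0.12), and VEGFC (−0.86 ± 0.42) did not pass. The mesoderm markers differed between these groups as well, with MIXL1 at 127 CPM in naive and 3.35 in primed controls, and the lymphatic marker PDPN was at 605 ± 17 and 241 ± 3.47. Their part in these differences was not tested.

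Between day 2 ectoderm and primed H1 controls, the receptors and the neuropilins parted. The primed controls are the same libraries as in the CARHSP1 and naive comparisons, so the comparisons are not independent. Of the 8 genes, 2 passed as higher, both of them neuropilins, and 4 as lower, where 30.7% and 32.1% of all genes tested did so and 62.8% passed either way. NRP2 rose 10.3-fold, from 69.3 ± 2.32 to 716 ± 6.79 CPM (log2 3.36 ± 0.06). NRP1 rose from 0.647 ± 0.319 to 15.7 ± 3.26 CPM (4.69 ± 0.31). KDR fell by 2.25 ± 0.07, FLT1 by 1.74 ± 0.07 and FLT4 by 1.25 ± 0.15. Summed per length, the neuropilins went from 5.05 to 52.9 CPM per kb and the receptors from 66.7 to 16.2. VEGFB fell 3.6-fold, to 7.04 ± 0.922 CPM (−1.85 ± 0.16), and VEGFC (−1.03 ± 0.47) and PGF (−0.59 ± 0.32) did not pass.

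The size of the naive to primed difference is set side by side for the lines from 1 fit of the 4 groups, as the log2 change in H9 minus that in H1. It passed for 6 of the 8 genes, as higher in 4 and lower in 2, where 26.2% and 23.6% of all genes tested did so and 49.9% passed either way. KDR differed by 2.56 ± 0.13, since it was 1.98-fold lower in naive H9 cells and 11.8-fold lower in naive H1 controls. FLT1 differed the other way, by −1.46 ± 0.13, with falls of 20.6-fold in H9 and 7.52-fold in H1. So KDR was the receptor with the larger fall in H1 and FLT1 the one with the larger fall in H9. FLT4 differed by 0.98 ± 0.28, but not past the threshold without naive H9 replicate 2 (0.68). NRP1 differed by −1.84 ± 0.38 and NRP2 by 0.66 ± 0.17. VEGFB (0.21 ± 0.21) and VEGFC (0.61 ± 0.59) did not pass. PGF differed by 1.52 ± 0.60, a call lost when any of 8 single libraries was left out. Cell line, count table and doxycycline with a nontargeting control differ together here and cannot be told apart. The naive groups also differed in mesoderm markers, which summed to 139 to 160 CPM in H1 controls and 8.11 to 9.7 in H9. For the line difference, 1 mesoderm marker was higher and 2 lower of 4 tested (median −3.82). Of 6 trophoblast markers tested, 1 was higher and 5 lower (median −3.61). The part of these markers in the differences above was not tested.

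**Figure D4:**
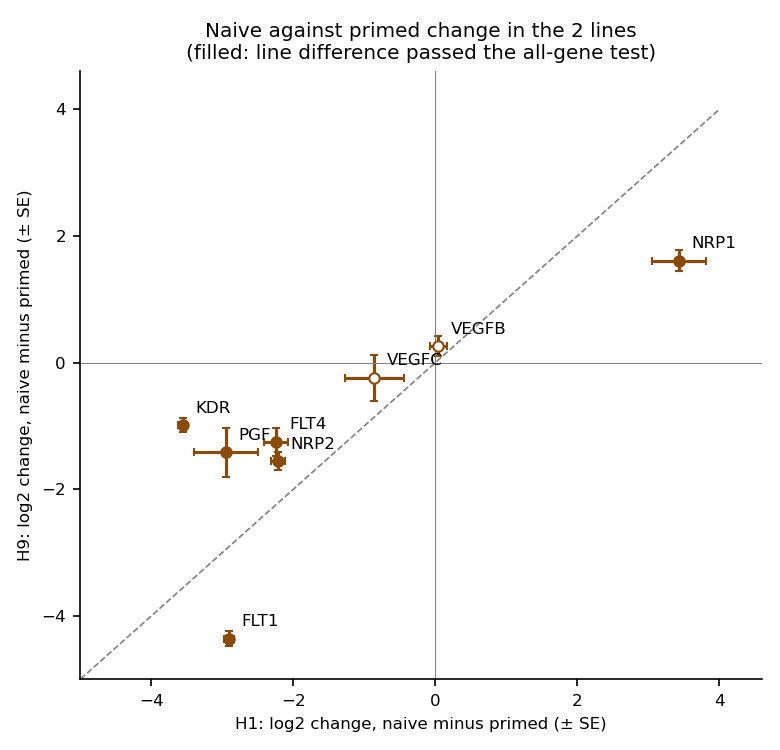
Log2 change from primed to naive cells in H1 nontargeting controls (horizontal) and in H9 (vertical), with SEs, for the 8 genes; the dashed line marks equal changes and filled points passed the test of the line difference. KDR lies above the line, at −3.56 in H1 and −0.99 in H9, and FLT1 below it, at −2.91 and −4.36.

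The partners of these genes were followed through fixed lists, given as counts beside the median of all genes, which was between −0.01 and 0 on the log2 scale in each comparison of 2 groups, and beside the share of all genes that passed in either direction. That share was 20.2%, 24.2% and 28.1% in the CARHSP1, ZNF8 and ZIC2 comparisons, 51.5% and 71.1% between naive and primed cells of H9 and H1, and 62.8% between ectoderm and primed controls. Plexins are semaphorin receptors, and the list of 9 was not limited to those that pair with neuropilins. It had 0 members higher and 1 lower of 8 tested in the CARHSP1 knockdown, 2 and 2 of 8 in the libraries labelled ZNF8 knockdown, and 5 and 1 of 8 in the ZIC2 knockdown (median log2 change 0.34). All genes passed at 20.2%, 24.2% and 28.1%. The CARHSP1 call was PLXNB2 (−0.19), which did not pass by DESeq2 (−0.19), after removal of GC and length trends (0.00), in a fit of all H1 groups (−0.19), or when any of 4 libraries was left out, namely knockdown replicates 2 and 3 and controls 1 and 3 (−0.20 to −0.09). In the ZIC2 knockdown, PLXNB2 rose from 73.3 ± 6.3 to 117 ± 26.3 CPM (0.67 ± 0.11) and PLXNA2 from 4.34 ± 0.899 to 9.06 ± 1.44 (1.06 ± 0.24). These 2 passed in every alternative, though PLXNB2 at only 0.26 after removal of GC and length trends. The count of 5 went to 2 after removal of GC and length trends and to 3 without knockdown replicate 1 or control replicate 2. Between naive and primed cells, 0 plexins were higher and 5 lower of 7 tested in H9, and 1 higher and 6 lower of 8 in H1, where 51.5% and 71.1% of all genes passed. PLXNA1 fell from 111 ± 7.23 to 28.3 ± 1.98 CPM in H1 (−1.97 ± 0.08), and PLXNA3 was the exception, rising from 11.1 ± 1.45 to 50.5 ± 0.981 (2.18 ± 0.11). In day 2 ectoderm against primed controls (62.8% of all genes), 1 was higher and 5 lower of 8, among them PLXND1, a receptor of SEMA3E, at 36.5 ± 1.86 CPM against 95.1 ± 2.4. After removal of GC and length trends, 2 were higher and 2 lower.

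Class 3 semaphorins, guidance ligands of neuropilins and plexins, had 0 higher and 2 lower of 7 tested in the CARHSP1 knockdown, and 1 lower after removal of GC and length trends. Of all genes there, 10.3% passed as higher and 9.87% as lower. SEMA3E, the ligand of the plexin PLXND1, fell in that knockdown from 89.3 ± 2.31 to 53.6 ± 5.25 CPM (−0.75 ± 0.07). In the libraries labelled ZNF8 knockdown, 3 were higher and 1 lower of 6, beside 11.9% and 12.3% of all genes. SEMA3C rose from 8.05 ± 1.53 to 21.4 ± 2.85 CPM (1.40 ± 0.15) and SEMA3B from 8.03 ± 0.147 to 17.2 ± 1.79 (1.08 ± 0.15). The ZIC2 knockdown had 3 higher and 1 lower of 7, beside 15.3% and 12.8% of all genes, and 0 lower when replicate 1 or 3 of either group was left out. SEMA3F, a ligand of NRP2, rose there from 26.5 ± 2.58 to 53.5 ± 5.79 CPM (1.00 ± 0.11), and by 0.63 after removal of GC and length trends. From primed to naive cells, 2 were higher and 3 lower of 7 in H1 (median 0.18), beside 35.0% and 36.1% of all genes. In H9, 2 were higher and 4 lower of 6 (median −0.59), beside 25.4% and 26.1%. SEMA3F fell in both lines (−2.34 ± 0.10 in H1 and −0.79 ± 0.12 in H9), as did SEMA3A, the ligand of NRP1 (−1.29 ± 0.08 and −0.77 ± 0.16). SEMA3E rose in H1 (1.06 ± 0.06) and fell in H9 (−0.40 ± 0.11), and its line difference of −1.46 ± 0.12 passed (edgeR adjusted p = 1.98e-11).

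VEGFC has to be cut by secreted proteases before it activates FLT4, with CCBE1 as a helper of ADAMTS3 and FURIN as a convertase. Of 5 such genes, 0 passed in the CARHSP1 knockdown by edgeR, DESeq2 or limma-voom, with 1 at an unadjusted edgeR p under 0.05. Over all alternatives run, 0 or 1 passed there as lower and 0 as higher. Of the same 5, 1 rose and 1 fell in the libraries labelled ZNF8 knockdown, and 2 rose in the ZIC2 knockdown, where 24.2% and 28.1% of all genes passed. The ZNF8 rise was FURIN (0.21), which did not pass without replicate 2 of the labelled libraries (0.16) or control replicates 1 (0.17) or 2 (0.21). The 2 in the ZIC2 knockdown were CCBE1, from 21 ± 3.29 to 39 ± 3 CPM (0.89 ± 0.13), and FURIN, from 28.7 ± 2.31 to 42.4 ± 7.05 (0.55 ± 0.12), and FURIN no longer passed after removal of GC and length trends (0.22). PCSK5 and PCSK7, further convertases, rose from primed to naive H1 controls, from 38.6 ± 2.7 to 104 ± 9.08 and from 21.3 ± 2.18 to 74.1 ± 1.48 CPM, while CCBE1 fell from 13.7 ± 1.83 to 2.22 ± 0.37.

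Genes that carry the receptors' signal inside the cell were tested as a list of 43, among them kinases, adaptors and the calcineurin branch. In the CARHSP1 knockdown 5 rose and 5 fell of 41 tested, in the libraries labelled ZNF8 knockdown 4 and 4 of 39, and in the ZIC2 knockdown 7 and 6 of 41, with medians of 0.03, −0.04 and 0.08. These are 24.4%, 20.5% and 31.7% of the list, near the 20.2%, 24.2% and 28.1% of all genes. These counts were unstable, and removal of GC and length trends made them 10 and 1 in the CARHSP1 knockdown, while without replicate 1 of the libraries labelled ZNF8 knockdown they were 1 and 1. The Src-family kinase YES1 rose from 159 ± 5.05 to 203 ± 8.52 CPM in the CARHSP1 knockdown (0.35 ± 0.05). PRKCB, a protein kinase C, fell from 58.3 ± 2.89 to 34.6 ± 4.66 CPM in the ZIC2 knockdown (−0.76 ± 0.10). Of the list, 15 were higher and 19 lower of 42 in naive against primed H1 controls (81.0%, beside 71.1% of all genes), and 10 and 10 of 41 in H9 (48.8%, beside 51.5%). PRKCA fell from 54.6 ± 0.947 to 6.69 ± 0.81 CPM in H1 (−3.03 ± 0.12), PRKCB from 38.9 ± 1.66 to 11 ± 1.95 in H9 (−1.82 ± 0.14), and PPP3CA, a catalytic subunit of calcineurin, from 95.7 ± 3.24 to 24 ± 1.06 in H1 (−1.99 ± 0.08) and from 35 ± 5.26 to 11.2 ± 0.733 in H9 (−1.62 ± 0.14). In ectoderm against primed controls 11 were higher and 15 lower of 41 (63.4%, beside 62.8%), with the adaptor SHC1 at 85.7 ± 7.68 CPM against 213 ± 7.13.

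Hypoxia-response genes were followed because FLT1 and several VEGF ligands are known to respond to low oxygen. In the CARHSP1 knockdown 1 of 14 tested was higher and 12 lower (median −0.57), where 10.3% and 9.87% of all genes passed, with BNIP3 at 48.1 ± 1.82 CPM against 146 ± 6.26. In the libraries labelled ZNF8 knockdown 0 of 15 were higher and 12 lower (median −0.51), beside 11.9% and 12.3% of all genes, with LDHA at 327 ± 11.2 CPM against 850 ± 8.09. The ZIC2 knockdown had 3 higher and 6 lower of 14 (median −0.32), beside 15.3% and 12.8%, with PGK1 at 427 ± 26.7 CPM against 858 ± 68.9. FLT1 was higher (CARHSP1 and ZNF8 comparisons) or did not pass (ZIC2 comparison) in the same libraries. From primed to naive cells, 9 were higher and 2 lower of 16 in H9 (median 0.51), where 25.4% of all genes passed as higher and 26.1% as lower. In H1, 6 were higher and 8 lower of 15 (median −0.10), beside 35.0% and 36.1%. FLT1 fell in both lines. In ectoderm against primed controls, 2 were higher and 10 lower of 14 (median −0.67), beside 30.7% and 32.1%. The part of the hypoxia response in the differences of FLT1 and the ligands was not tested.

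Related receptor tyrosine kinases and the genes around KDR give a local comparison. KDR lies at chr4:55078259-55125595 (GRCh38, minus strand) in a row with the receptor kinase genes PDGFRA and KIT, and KIT is 338 kb away. In the CARHSP1 knockdown, 0 of 6 tested neighbours of KDR were higher and 1 lower, namely KIT, at 64 ± 3.02 CPM against 75.4 ± 3.02 (−0.24 ± 0.07), beside a KDR change of −1.15. That is 16.7% of the neighbours, near the 20.2% of all genes that passed. KIT did not pass there in a fit of all H1 groups (−0.24), without knockdown replicate 2 (−0.21) or without control replicate 2 (−0.20). In the ZIC2 knockdown KIT rose from 68.6 ± 2.57 to 91.9 ± 4.43 CPM (0.41 ± 0.08) where KDR fell, as the 1 higher of 6 tested neighbours, and the neighbours TMEM165 (−0.36 ± 0.09) and SRD5A3 (−0.44 ± 0.16) fell. In the libraries labelled ZNF8 knockdown, KIT fell by 0.36 ± 0.12, a call lost when any of 4 single libraries was left out (−0.38 and −0.25 without replicates 1 and 3 with that label, −0.28 and −0.35 without control replicates 2 and 3). KIT was the 1 lower of 6 tested neighbours there, with 0 higher, or 16.7% beside 24.2% of all genes. KIT fell from primed to naive H1 controls (−1.53 ± 0.09) and rose in H9 (0.68 ± 0.10), a line difference of 2.20 ± 0.13 (edgeR adjusted p = 8.46e-15), beside 2.56 for KDR. Of the 6 neighbours tested for a line difference, PDGFRA was also higher (1.42 ± 0.43), SRD5A3 (−0.89 ± 0.17) and CLOCK (−0.59 ± 0.15) were lower, and the median was −0.05. Of these neighbours 66.7% passed, beside 49.9% of all genes. The endothelial receptor TEK rose from 17.9 ± 1.74 to 27 ± 0.687 CPM in the CARHSP1 knockdown (0.57 ± 0.11) and was at 0.712 ± 0.171 CPM in naive H1 controls. FLT1 lies at chr13:28300344-28495145 (minus strand). Of its neighbours, POMP rose in the CARHSP1 knockdown (0.34 ± 0.06) as 1 of 3 tested, beside 20.2% of all genes. In the libraries labelled ZNF8 knockdown, where FLT1 rose, 0 of 4 tested neighbours passed by edgeR, DESeq2 or limma-voom, and 0 had an unadjusted edgeR p under 0.05. Of all genes 24.2% passed there, and over all alternatives run 0 or 1 neighbour passed as higher.

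The genes whose levels ran most like a member's were taken over the 18 H1 libraries, among 11746 genes with a mean of at least 5 CPM, by Pearson correlation of log2(CPM + 1). These 18 libraries fall into 3 cell states, and the correlations share that structure, so they are a description. For KDR the closest were TESMIN (r = 0.985), MID1 (0.971), PHC1 (0.971), PPP3CA (0.963) and EPB41L2 (0.960). For FLT1 they were led by ADAMTS16 (0.981), for FLT4 by NSMF (0.982), for NRP1 by MICAL2 (0.964), for NRP2 by SCN4B (0.995), CDYL and NNAT (both 0.993), and for VEGFB by FAU (0.965). PPP3CA was also a member of the signalling list above. VEGFC and PGF were below 5 CPM and were not ranked.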

How the data were processed

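RNA was sequenced in 24 libraries, in 8 groups of 3 read from the sample titles. Per the submitters' processing notes, HISAT2 and GRCh38 were the aligner and build. Of the HISAT2 version, how reads were assigned to genes, the annotation used and whether strand was used, none is given in the sources used here. Reads from an antisense gene therefore cannot be told apart from a member's, but such genes overlapping a member held at most 4 counts in any library. The values are raw counts per gene as deposited by the authors, without normalization, in 1 table for H1 and 1 for H9. Gene lengths in bases come from a column the authors deposited in the H1 table, in which 27 further columns match no sample described here and were not used. Symbols were found for 60401 of 60671 genes, and positions come from GENCODE 29 on GRCh38.

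Each comparison was fitted on its 2 groups alone with edgeR 4.0.16 in R 4.3.3 (filterByExpr, TMM, quasi-likelihood F test, 2-sided, Benjamini-Hochberg over all genes tested, threshold 0.05), and the line difference as the interaction in a fit of 4 groups. Adjusted p-values in the text are edgeR's. Log2 changes are the group named first minus its control or primed group, with an SE derived from F. Levels are CPM on 1 TMM scale over all libraries, and levels compared between genes were divided by length in kb. Scripts were tested on simulated data. Replicates differed by more than counting noise (chi-square per degree of freedom 2.44 to 9.16), and each library was counted as 1 sample. That spread does not show that the libraries came from different cultures. Alternatives were DESeq2 1.42.0 and its size factors, limma-voom (limma 3.58.1), no low-count filter, removal of GC and length trends, a fit of all groups, a replicate block, and leaving out each library.

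The members, the lists and the tests were chosen with earlier results of these data known. Named genes are the members, the 3 targets, the neighbours of KDR, up to 3 genes per list and comparison with the smallest adjusted p at a mean of at least 5 CPM, and the 5 genes most like each member. The text names part of these.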

Additional observations from a re-analysis of the deposited data

Results flagged for a closer look

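The difference between naive and primed cells passed as unequal in the 2 lines for 6 of the 8 genes, by the line by state interaction in edgeR over all genes, where 49.9% of genes tested passed. As H9 minus H1, the log2 changes differed by 2.56 for KDR, −1.46 for FLT1, 0.98 for FLT4, −1.84 for NRP1, 0.66 for NRP2 and 1.52 for PGF. These genes were picked with the levels of all groups in view, so the values are a description. FLT4 did not pass without naive H9 replicate 2 (0.68), and PGF did not pass when any of 8 single libraries was left out (1.30 to 1.57). In both lines the 3 receptors, NRP2 and PGF fell from primed to naive cells and NRP1 rose (PGF in H9 not past the threshold without primed replicate 3, at −0.91), so the differences are in size and not in direction. The KDR to FLT1 ratio per length therefore ran opposite ways, from 2.66 ± 0.116 (SD, n = 3) in primed to 1.69 ± 0.121 in naive H1 controls, and from 0.844 ± 0.0999 to 8.71 ± 1.16 in H9. Line, count table and the doxycycline and nontargeting handling of H1 cannot be told apart in this design. Mesoderm markers also summed to 139 to 160 CPM in naive H1 controls and 8.11 to 9.7 in naive H9 cells, and their part was not tested.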

How the results depend on the processing

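Over the alternatives run, 54 changes of single genes were recomputed 734 times, of which 685 kept direction and side of the threshold, 23 kept direction but no longer passed, 11 newly passed and 15 changed sign. No change that had passed changed sign. KDR in the CARHSP1 and ZIC2 comparisons, FLT1 in the ZNF8 comparison and both neuropilins in the ZIC2 comparison passed in every alternative. The genes were picked with these same counts in view, so this describes how the values depend on processing and is no further support for them. Removal of GC and length trends turned changes that had not passed, to 0.07 for FLT4 and 0.01 for PGF in the CARHSP1 comparison, −0.00 for PGF in the ZIC2 comparison and −0.13 for VEGFB in the line difference. Leaving out single libraries gave ranges across 0 for VEGFC (−0.13 to 0.30) and PGF (−0.15 to 0.02) in the CARHSP1 comparison, KDR (−0.04 to 0.13), NRP2 (−0.17 to 0.02) and VEGFC (−0.90 to 0.45) in the ZNF8 comparison, PGF (−0.08 to 0.31) in the ZIC2 comparison and VEGFB (−0.05 to 0.14) between naive and primed H1 controls. The cause was not tested.

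All genes passing in the CARHSP1 comparison numbered 3152, and 2045 to 3410 without single libraries, the fewest without control replicate 1 and 2096 without knockdown replicate 2. The members passing there were 4 or 5. Replicate numbers were not used as pairs in the main fits. Deviations of same-numbered libraries correlated at 0.0683 to 0.0864 (CARHSP1), −0.0723 to 0.0654 (ZNF8), 0.00897 to 0.115 (ZIC2) and −0.318 to 0.39 (H9). In the CARHSP1 comparison each library correlated best with its own number, a hint from the data and not the design, so pairing was not settled there. With the replicate block, 3404, 3631 and 4460 genes passed in the CARHSP1, ZNF8 and ZIC2 comparisons against 3152, 3702 and 4217, and 7803 against 8119 in H9. VEGFB newly passed in the ZIC2 comparison, as did VEGFC in ectoderm against primed cells. A fit of all groups was not run for H9, whose table holds only the 2 groups compared, and the block was not combined with the GC correction. NRP1 in primed H1 controls, VEGFC throughout and PGF in naive H1 cells rest on few counts, which limits their precision.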
